A study of Caenorhabditis elegans with 3 samples.

Results

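The gene elt-3 of Caenorhabditis elegans encodes ELT-3, a GATA-type zinc finger transcription factor of the epidermis. The peaks of ELT-3 itself at this gene are described here. The gene was chosen with earlier results of these data known. Its peaks were taken by position alone: every peak with its summit from 5 kb upstream to 2 kb downstream of elt-3. Of the 4530 peaks that the authors thresholded on reproducibility, 7 lay there. The pooled relaxed list placed 10 of its 26508 peaks there. The list of replicate 1 placed 11 of 30000, and that of replicate 2 placed 11 of 27330. These longer lists are labelled as peaks and background, so an entry in them need not be a bound place.

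The study mapped where ELT-3 sits on the genome by ChIP-seq, in which DNA bound by a factor is immunoprecipitated and sequenced. It used whole worms at L1, the first larval stage, with both sexes pooled. All 3 libraries came from the strain OP75, of genotype unc-119(ed3) III with the transgene wgIs75, which supplies ELT-3 fused at its C terminus to GFP-FLAG. Biological replicate 1 has 2 technical libraries in 1 alignment and biological replicate 2 has 1 library. There is 1 group, so conditions could not be compared and no test was made. Read totals are not in the files analysed, so depth is unknown. The labels name elt-3 as the target of the antibody without saying whether it binds the tag or ELT-3 itself. They list no mutation of elt-3, and they give neither the promoter nor the copy number of the transgene. A transgene that carries elt-3 adds copies of its sequence to those of the native gene, and reads from both are placed on the same coordinates. Peaks on native copies and peaks on transgene copies therefore cannot be told apart, and whether extra copies raise the signal here was not tested.

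GATA factors bind short sequences with the core GATA through zinc fingers. In the worm epidermis ELT-1 specifies the tissue early, and ELT-3 acts after it in the cells that secrete the cuticle. A factor is said to regulate its own gene when its binding there changes transcription. A peak records binding near a place and not its effect on transcription.

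On the ce11 build elt-3 spans 13934874 to 13941216 on the plus strand of chromosome X, a length of 6343 bp, with 6 annotated transcripts. The longest, K02B9.4a.2, has 8 exons, and its intron 2 is by far the longest at 3622 bp, from 13935121 to 13938742. Exons and introns are numbered along that transcript below. K02B9.4a.1 starts at 13938743, where intron 2 ends, so intron 2 of the long transcripts is the sequence upstream of the short one. K02B9.4b.1, K02B9.4c.1 and K02B9.4d.1 begin at their start codon in the annotation, so their starts are not mapped ends of an RNA. The start of K02B9.4a.1 is also the first base of exon 3 of the long transcript, so it need not be a mapped end either.

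The 2 strongest ELT-3 peaks of the gene lay in intron 2, upstream of the short transcript. TGATAA lay within 50 bp of the summits of the 3 strongest peaks, and elsewhere in 3 of the other 4. A GATA site of any kind listed below lay within 50 bp of 37.8% of all thresholded summits. Such a site lay somewhere in 66.1% of all thresholded peaks. The share of peaks with TGATAA alone is not given here. The sequences within 50 bp of 4 summits are shown. Peaks 3, 4 and 5 are the 3 strongest of the gene, and peak 7 is the next in signal and has no GATA site in this window. Peaks are numbered along the gene. The letters are those of the plus strand of RefSeq's WBcel235 assembly, which is ce11, written 5′ to 3′. Capitals mark the GATA sites, which are AGATAA, its variant AGATAG, the sequence TGATAA and its variant TGATAG, each on either strand. Read on the plus strand, TTATCA is therefore a site of the minus strand, where it reads TGATAA.
Peak 3, intron 2, chrX:13937535-13937635: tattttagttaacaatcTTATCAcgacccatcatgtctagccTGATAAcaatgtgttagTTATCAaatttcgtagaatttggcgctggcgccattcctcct
Peak 4, intron 2, chrX:13938102-13938202: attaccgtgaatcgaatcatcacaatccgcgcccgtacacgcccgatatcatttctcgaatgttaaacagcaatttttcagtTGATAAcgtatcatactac
Peak 5, intron 4, chrX:13939520-13939620: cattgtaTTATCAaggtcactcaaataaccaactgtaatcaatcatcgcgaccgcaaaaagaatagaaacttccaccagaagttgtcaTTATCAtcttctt
Peak 7, downstream, chrX:13941399-13941499: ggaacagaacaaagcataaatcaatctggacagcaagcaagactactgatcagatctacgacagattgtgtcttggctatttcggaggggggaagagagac

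Intron 2 held 3 of the 7 thresholded peaks. Their values are the authors' peak signal, on a scale that is not stated, used here to rank peaks within a list. Peak 3, at 13937504 to 13937726, had its summit 1158 bp upstream of the start of K02B9.4a.1 and a signal of 220.1. It ranked 45 in the thresholded list. Peak 4, at 13938000 to 13938273, had its summit 591 bp upstream of that start, a signal of 180.3 and rank 112. It was the only one of the 7 in the promoter of K02B9.4a.1, a promoter being the stretch that runs 1000 bp before and 200 bp after an annotated transcript start. Peak 2, at 13936758 to 13937077, lay farther upstream, 1825 bp from the same start, with a signal of 92.4 and rank 980. Its summit was 70 bp before the start of K02B9.8, a noncoding RNA gene annotated within intron 2 on the same strand.

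These 3 summits lay close together, with 667 bp between peaks 2 and 3 and 567 bp between peaks 3 and 4. Of all 4530 thresholded peaks, 53, or 1.17%, belonged to a run of 3 summits within 1234 bp, the span seen here. Among the 112 strongest peaks, at least 2 lay in the window of 7 of 19973 protein-coding genes, elt-3 among them. Both of these measures were chosen after the peaks of elt-3 were seen.

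Of the other 4 peaks, 2 lay in introns farther along the gene. Peak 5, at 13939500 to 13939648, had its summit in intron 4 with a signal of 127 and rank 404. It was 149 bp wide, the narrowest of the 7, against a median of 320 bp over all thresholded peaks. Its summit was 156 bp upstream of K02B9.4d.1 and so in a promoter by the same rule, but that start is only a start codon. Peak 6, at 13940386 to 13940705, had its summit in intron 7, which is 46 bp long, with a signal of 52.8 and rank 2730. The peak also covers exon 7 and the first part of exon 8, on either side of that intron.

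The remaining peaks lay outside the gene. Peak 7, at 13941289 to 13941608, had its summit 233 bp past the end of elt-3, with a signal of 102 and rank 775. Peak 1, at 13933398 to 13933717, had its summit 1316 bp upstream of the first annotated start, with a signal of 47.7 and rank 3146. No thresholded summit lay in the promoter of the long transcripts, but each replicate listed a weak peak there that the other did not. In replicate 1 it lay in exon 2, 217 bp past the first start, with a signal of 5.31. In replicate 2 it lay 911 bp upstream of that start, with a signal of 11.1.

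**Figure D1:**
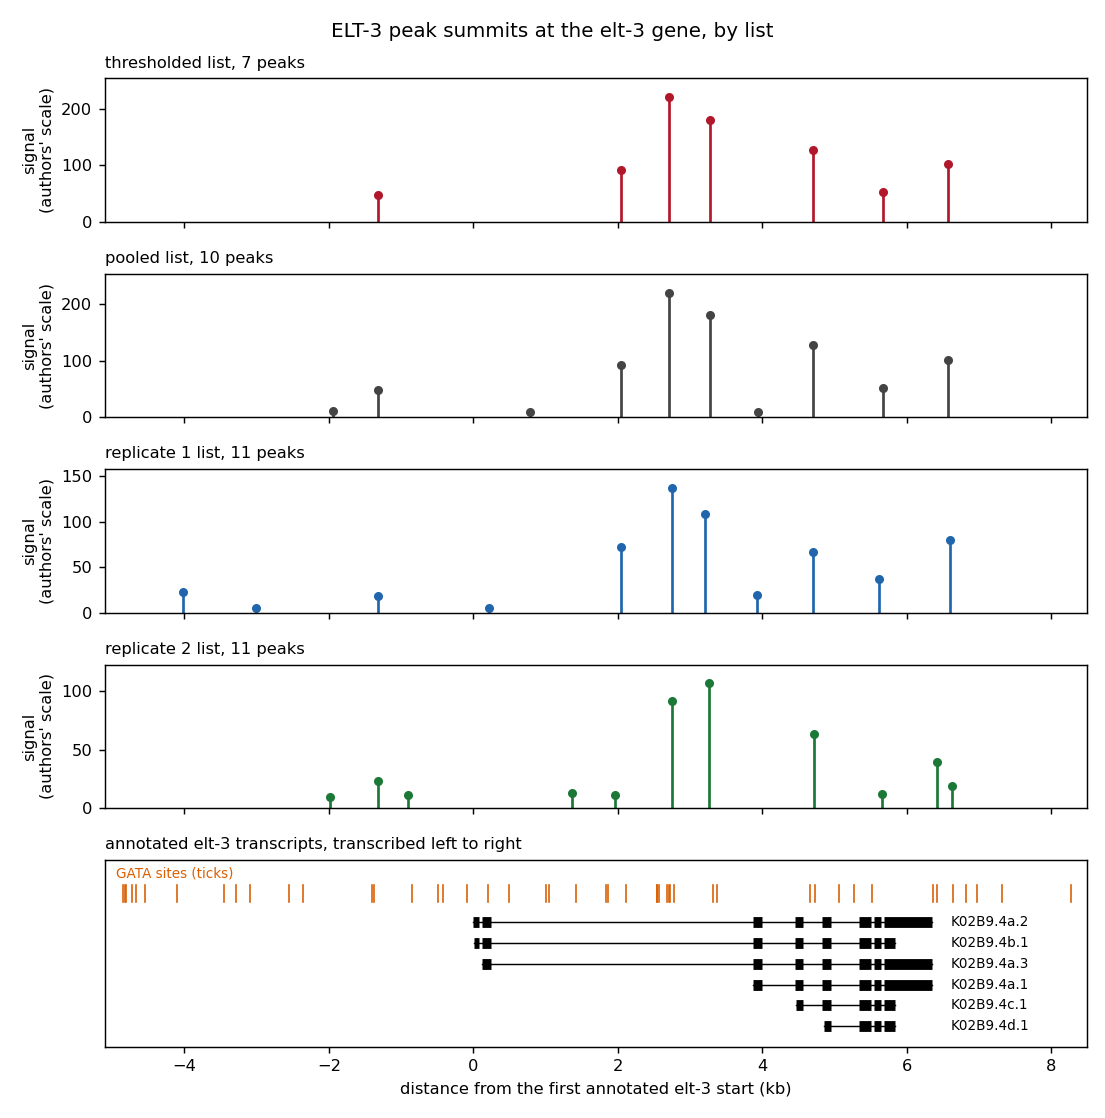
Each stem is a peak summit, placed by its distance from the first annotated start of elt-3 in kb, with the authors' signal as its height on an axis of its own for each list. The lowest panel shows the 6 annotated transcripts, with exons as boxes, and every GATA site of the window as a tick. The tallest stems of all 4 lists stand in intron 2, between 2 and 4 kb.

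The thresholded peaks of elt-3 were strong ones for the list. Their signal was 102 at the median and 47.7 to 220.1 in all, and 5 of the 7 were above 59.9, the median of the thresholded list. All 7 had the largest −log10 q in that list, 3.86, as did 3584 peaks of it. In replicate 2 alone, −log10 q was only 0.689 at peak 2 and 0.756 at peak 6. The 3 further peaks of the pooled list in the window had signals of only 10.1 to 11.4 and −log10 q of 0.127 to 0.230. The thresholded list ends at a signal of 35.2, so no peak of elt-3 lay near that limit. One of these weak peaks had its summit in exon 3, 75 bp past the start of K02B9.4a.1, with a signal of 10.1.

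GATA sites lay within 50 bp of 3 of the 7 summits, against 37.8% of all 4530 thresholded summits, or 1713 of them. The 3 summits were those of the strongest peaks, whose sequences are shown above. Peak 3 had 3 sites, centred 30.5 bp and 5.5 bp to the left of the summit and 11.5 bp to its right. Of all thresholded peaks, 157, or 3.47%, had 3 or more. Peak 5 had a site 40.5 bp to each side of its summit. Peak 4 had 1 site, 34.5 bp to the right. The 4 peaks without a site within 50 bp had signals of 47.7, 52.8, 92.4 and 102. These are descriptions of 7 peaks of 1 gene, and no relation between sites and signal was tested.

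All 6 sites within 50 bp of these summits read TGATAA. Over all thresholded summits TGATAA made up 50.7% of the 2535 such sites, and over the nuclear genome 44.3% of 238156 sites. Within the full width of the 7 peaks there were 14 GATA sites in 1926 bp, or 7.27 per kb, and 11 of the 14 read TGATAA. Neither value is given here over the full width of all thresholded peaks, so neither is shown to be particular to elt-3. The rest of the window held 33 sites in 11417 bp, or 2.89 per kb, of which 16 read TGATAA. The genome held 2.38 per kb. Most GATA sites of the window therefore lay outside thresholded peaks, and each of the 7 peaks held at least 1 site somewhere in its width, as did 66.1% of all thresholded peaks.

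Another pair of sequences, GAGAGA and CTGCGT, was sought in the same windows on either strand. GAGAGA was present at 1 of the 7 summits, that of peak 7, against 24.6% of all thresholded summits. CTGCGT was at none of the 7, against 12.0% of all thresholded summits. In windows of the same width 500 bp to either side of the thresholded summits, GAGAGA was present in 5.52% on each side. A GATA site was present in 21.3% of windows to the left and 20.6% to the right. Among windows of the same width centred 500 bp upstream of a start of each protein-coding gene, 20.5% held a GATA site, 5.47% GAGAGA and 2.18% CTGCGT.

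**Figure D2:**
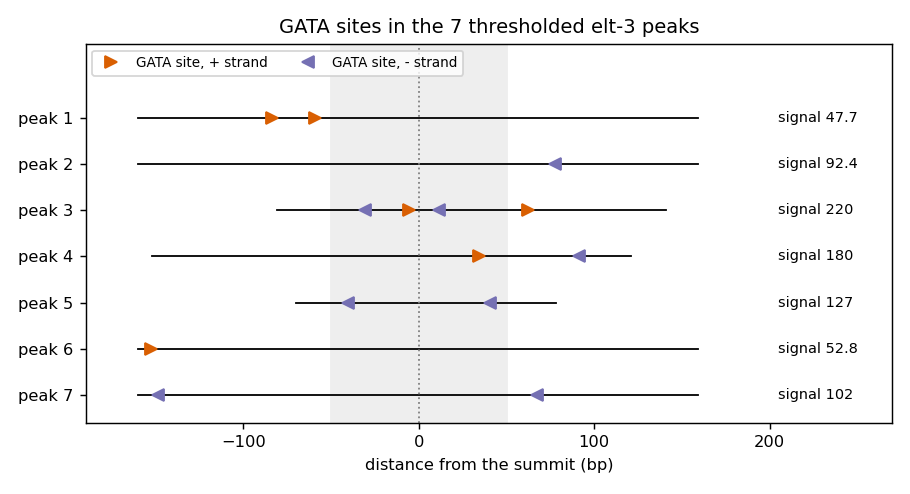
Each line is a thresholded peak of elt-3 from its start to its end, placed by distance from its summit in bp, with its signal at the right. Triangles mark GATA sites by strand, and the grey band is the stretch within 50 bp of the summit. Sites fall in the band for peaks 3, 4 and 5, which have signals of 220.1, 180.3 and 127.

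Each of the 7 peaks overlapped a peak of both replicate lists by 1 bp or more, as did 96.0% of all thresholded peaks. The 3 peaks with GATA sites within 50 bp of the thresholded summit were strong in each replicate. Peak 3 had a signal of 137 and rank 25 in replicate 1, and a signal of 91.8 and rank 137 in replicate 2. Peak 4 had a signal of 108 and rank 88 in replicate 1, and 107 and rank 73 in replicate 2, where it was the strongest peak of the gene. Peak 5 had a signal of 67.0 and rank 526 in replicate 1, and 63.8 and rank 429 in replicate 2. The scale of the signal is not stated and the lists differ in length, so ranks place a peak within its own list only.

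Peaks 2 and 6 stood apart between the replicates. Peak 2 had a signal of 71.8 and rank 423 in replicate 1, and a signal of 11.7 and rank 8221 in replicate 2. Its summit in replicate 2 lay 91 bp from that of the thresholded peak, against a median distance of 23 bp over all thresholded peaks in that replicate. Peak 6 had a signal of 37.2 and rank 2053 in replicate 1, and 12.1 and rank 7782 in replicate 2. Both peaks were thus listed in replicate 2 but not among its 4530 strongest, which overlapped 77.2% of all thresholded peaks. At peaks 2 and 6 −log10 q was 0.689 and 0.756 in replicate 2, against 4.04 for both in replicate 1.

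Peak 1 had a signal of 18.6 and rank 4940 in replicate 1 and 23.7 and rank 2990 in replicate 2. Its summits lay 9 bp and 2 bp from the thresholded one. Peak 7 had a signal of 79.9 and rank 279 in replicate 1. In replicate 2 the same stretch was listed as a pair of overlapping peaks, with signals of 39.2 and 19.1 and ranks 1339 and 4039, whose summits lay 152 bp to the left and 55 bp to the right of the thresholded one. Only peaks 3, 4, 5 and 7 overlapped 1 of the 4530 strongest peaks of each replicate, a share of 4 of 7 against 61.5% of all thresholded peaks.

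The place of a summit decides which sites count as within 50 bp of it. At the summits of peak 3 in replicates 1 and 2 there were 3 GATA sites each. At peak 4 there was none in replicate 1, whose summit lay 71 bp to the left of the thresholded one, and 1 in replicate 2. At peak 5 there were 2 in replicate 1 and 1 in replicate 2. At peak 7 each replicate summit had 1, although the thresholded summit had none.

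**Figure D3:**
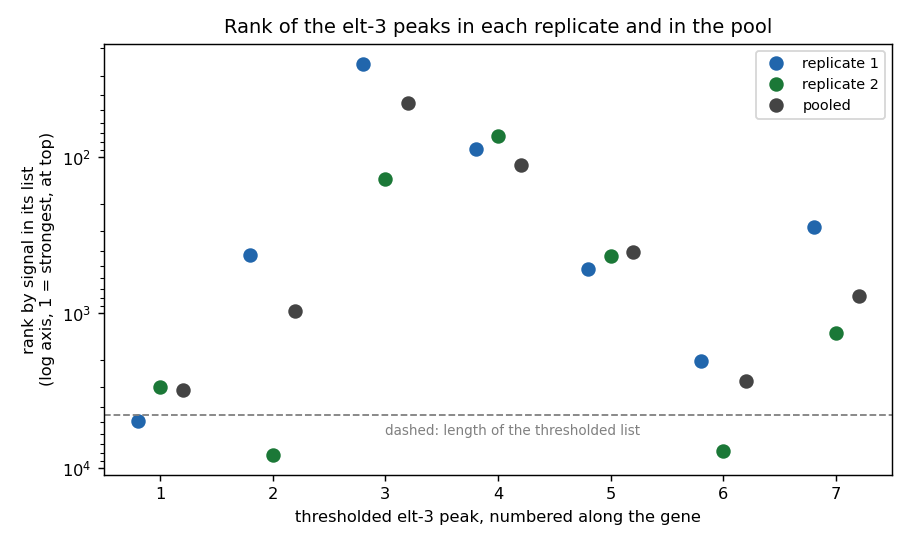
Points give the rank by signal of each of the 7 thresholded elt-3 peaks in the replicate 1, replicate 2 and pooled lists, on a log axis with rank 1 at the top. Where 2 peaks of a replicate overlapped, the better rank is drawn. Peaks 3, 4 and 5 keep ranks of 25 to 526 in all 3 lists, while peaks 2 and 6 in replicate 2 and peak 1 in replicate 1 fall below the dashed line, at rank 4530.

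Some peaks of the replicates matched none of the 7. Replicate 1 listed 4 more in the window, with signals of 5.31 to 22.3. The strongest of these lay 4018 bp upstream of the first start, at rank 4095, just before an annotated pseudogene. Another had its summit in exon 3, 55 bp past the start of K02B9.4a.1, with a signal of 19.9 and rank 4598. Replicate 2 listed 3 more, with signals of 9.54 to 12.8 and ranks of 7118 to 11971. The peak nearest to the upstream edge of the window lay just outside it, 5177 bp upstream of elt-3 in the pooled list with a signal of 14.3.

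Few genes had as many thresholded summits in the same window as elt-3. Of 19973 protein-coding genes, 6893, or 34.5%, had at least 1, and 22, or 0.11%, had 7 or more, elt-3 included. The windows of those 22 genes formed 21 separate stretches. Longer genes have longer windows, and the median span of the 22 was 13296.5 bp, against 2027 bp over all protein-coding genes. Among the 5396 genes with a span within a factor of 2 of that of elt-3, 6 had 7 or more. At least 5 summits between the gene's own ends, as in elt-3, were found in 26 genes, or 0.13%. In 107 genes the window held a stronger thresholded peak than peak 3.

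No gene had the same split of 1 summit upstream, 5 within and 1 downstream. The 5 genes most alike each differed from elt-3 by 1 in the summed counts of these 3 stretches, in the 1 condition measured. They were Y43F8B.2, ZK470.2, gei-3, sms-1 and fkh-7, with 6 summits each. Their highest signals were 165 at Y43F8B.2, 143 at ZK470.2, 111 at gei-3, 104 at sms-1 and 88.2 at fkh-7. All were longer than elt-3, with spans from 12690 bp at ZK470.2 to 25695 bp at fkh-7, a forkhead transcription factor gene.

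Among the genes of its family, elt-3 had the most thresholded peaks. Of all protein-coding genes, 65.5% had no thresholded summit in the same window and 23.2% had 1. The 10 other GATA factor genes were all shorter than elt-3 except egl-18, and so had shorter windows. They had at most 1 thresholded summit each, and 7 of them had none. Those with none were elt-1, the early epidermal factor, elt-6, which acts in the seam cells of the epidermis, elt-2, elt-4 and elt-7, genes of the intestinal GATA group, and end-1 and med-2, which act in endoderm specification. The seam cell factor gene egl-18 had a summit within the gene with a signal of 58.5 and 2 GATA sites within 50 bp. The endoderm gene end-3 had 1 at 2420 bp upstream, with a signal of 59.4 and no GATA site, and med-1 had 1 at 4832 bp upstream, with a signal of 53.3 and 1 site. In the relaxed lists elt-7 had no summit in its window at all, and elt-1 had 2 in the pooled list, 4 in replicate 1 and none in replicate 2.

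Of 3 further genes for epidermal factors, nhr-25 had 5 thresholded summits in the window and nhr-23 had 4, both encoding nuclear receptors that act in molting. The zinc finger gene lin-26, needed for epidermal fate, had none. The 5 strongest peaks of elt-3 had signals of 92.4 to 220.1, above the highest of nhr-25, at 75.5, and of nhr-23, at 58.1. A GATA site lay within 50 bp of 1 of the 5 summits at nhr-25 and 1 of the 4 at nhr-23. As many summits as nhr-25 had were found in 0.411% of protein-coding genes, and as many as nhr-23 in 1.21%.

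**Figure D4:**
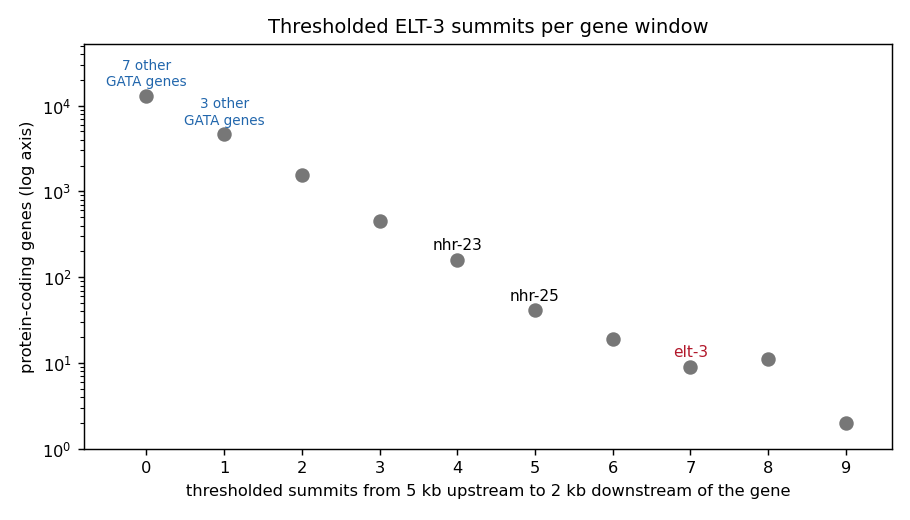
Points give, on a log axis, how many protein-coding genes had each number of thresholded summits from 5 kb upstream to 2 kb downstream. The gene elt-3 stands at 7, with nhr-25 at 5 and nhr-23 at 4, and the 10 other GATA factor genes at 0 or 1.

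Peaks, weak entries of the longer lists included, were also dense within 20 kb of elt-3, though not evenly. Over 50 kb on each side, without the gene, the pooled list had 0.340 summits per kb, and over 100 kb it had 0.285, against 0.264 over the genome. In the 20 kb on each side, without the gene, the pooled list had 25 summits, or 0.625 per kb. In 5 kb bins outward from the gene, it had 2, 2, 6 and 4 summits upstream and 4, 4, 1 and 2 downstream. A count of 2 was reached by 35.9% of all 5 kb bins of the genome, 4 by 8.9% and 6 by 1.65%. From 20 to 50 kb on each side the pooled list had 9 summits, or 0.150 per kb. Replicate 1 had 0.875 per kb within 20 kb and 0.250 per kb from 20 to 50 kb, against 0.299 over the genome. Replicate 2 had 0.625 and 0.233 per kb, against 0.273. The distance of 20 kb was chosen after the peaks were seen.

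Taken with the gene, the stretch of 46343 bp held 32 pooled summits, a number reached by 0.694% of the 2161 windows of that length into which the genome was divided. The median window held 12. These windows were not centred on genes, whereas the stretch was centred on elt-3 with a reach chosen after the peaks were seen. The comparison is therefore not like for like. In replicate 1 the stretch held 42 summits, and no such window held more than 41. In replicate 2 it held 31, reached by 0.787%. Most of these peaks were weak: 11 of the 32 were thresholded, and 4 of those lay outside the window, 17324, 16540 and 14302 bp upstream of elt-3 and 9730 bp past its end. Their signals were 207, 99.0, 144 and 87.3. The extent of the transgene is not in the files, and the part of extra copies in this density was not tested.

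Fewer peaks were listed at the strain's mutated gene, unc-119 on chromosome III. Transgenes of this kind often carry a functional unc-119, but the labels do not say whether wgIs75 does or from which species. The window of elt-3 held 7 thresholded and 10 pooled summits, against 0 thresholded and 4 pooled ones at unc-119. A window with no thresholded summit was common, found at 65.5% of all protein-coding genes. In the 20 kb on each side, without the gene, the pooled list had 0.625 summits per kb at elt-3 and 0.300 at unc-119. The genome had 0.264. In replicate 1 the same stretches had 0.875 at elt-3 and 0.400 at unc-119, against 0.299 over the genome. In replicate 2 they had 0.625 and 0.325, against 0.273.

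**Figure D5:**
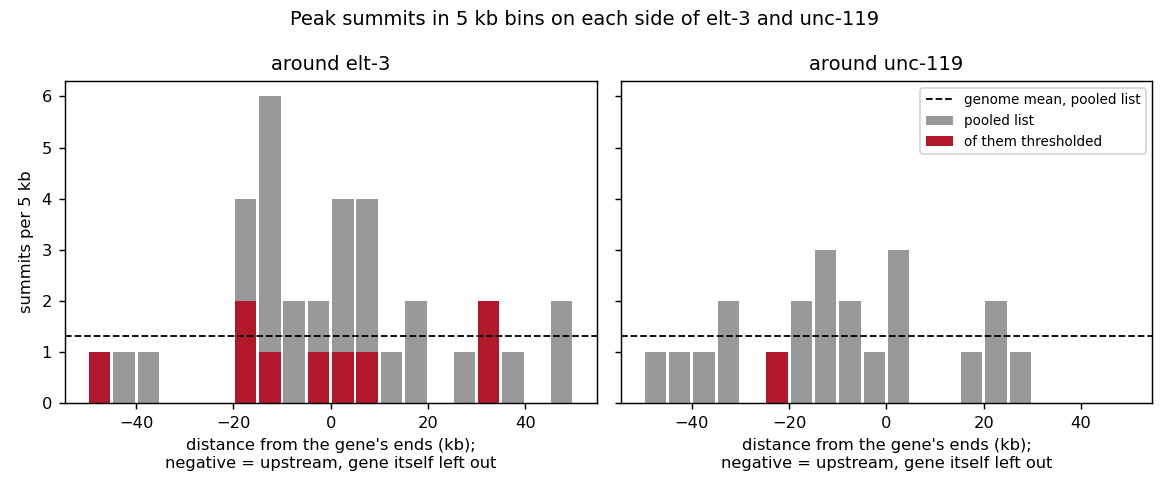
Bars give the summits per 5 kb bin to 50 kb on each side of elt-3 and of unc-119, for the pooled list in grey and the thresholded peaks among them in red. The dashed line is the genome mean of the pooled list, 1.32 per bin. The bin from 10 to 15 kb upstream of elt-3 holds 6 pooled summits, and no bin within 50 kb of unc-119 holds more than 3.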

How the data were processed

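ELT-3 binding was measured by ChIP-seq in 1 group of 3 libraries from 2 biological replicates. The authors deposited 4 ce11 peak lists, used here: 1 per replicate, 1 of the pool and 1 thresholded on reproducibility, made from alignments and a control, per the deposited file descriptions. No source used here names the aligner, the peak caller or the strain of the control. The deposited signal of each peak is the authors' value on an unstated scale, and the deposited −log10 q is from the same files. Lists on ce10 were not used.

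Summits came from the deposited offsets. The pooled list held every thresholded peak with the same ends, summit and signal, and the 7 peaks of elt-3 had the same rank in both. Sequences were read from RefSeq's WBcel235, the same assembly as ce11. Gene models were those of Ensembl release 115. Coordinates count from 1. Overlap meant 1 bp or more. Genes were named by a written rule: elt-3, 10 other GATA factor genes, 3 epidermal factor genes, unc-119, genes in the window and the 5 most alike in counts of summits upstream, within and downstream, then in log10 of the highest signal. The members and gene lists were chosen with earlier results of these data known. With 1 group, values are descriptions set beside all genes or all peaks, and neighbouring peaks are not independent. Alternatives covered peak set, single replicates, windows, overlap, motif and promoter width. Counting functions were checked on made-up data with known answers. Python 3.11.15, numpy 2.4.6, pandas 2.3.3 and matplotlib 3.10.9 were used.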

Additional observations from a re-analysis of the deposited data

How the results depend on the processing

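The number of thresholded summits in the elt-3 window was within 1.5 times of 7 in the 6 alternatives run, from 5 in the stronger 2265 of the thresholded peaks to 7. With the 4530 strongest peaks of a single replicate it was 6 to 7, but not of the same peaks: those of replicate 1 overlapped 6 of the 7 and those of replicate 2 overlapped 5. The percentage of protein-coding genes with at least as many summits was 0.11, and was 0.0701 in the 2265 strongest peaks, 0.0501 with a window of 2 kb upstream and 1 kb downstream, 0.27 with 10 kb and 5 kb, and 0.125 to 0.265 with single replicates. GATA sites lay at 3 of 7 peaks within 50 bp, 1 within 25 bp, 6 within 100 bp and 7 over the whole peak, against 37.8%, 21.3%, 55.6% and 66.1% of all thresholded peaks, so wider windows hold more sites by construction. Peaks matched in both replicates were 7 of 7, 5 when 50% of each peak had to overlap, and 4 with only the 4530 strongest peaks of each, an alternative added after seeing the data. Promoter peaks were 2, and 1 when a promoter ran only 500 bp before and 100 bp after a start. The strongest elt-3 peak of each list stood at 0.993% of the thresholded list and at 0.17% of the longer pooled list. In single replicates it stood at 0.0833% in replicate 1 and 0.267% in replicate 2. It was peak 3 except in replicate 2, where it was peak 4 and peak 3 stood at 0.501%. No paired analysis was possible because there is 1 group. Depth is unknown, so weak peaks absent from a replicate list may lie below its limit.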

Other observations

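Base composition differed among the 7 elt-3 summits. The share of G and C within 50 bp was 35.6% at peak 5, 38.6% at peak 3 and 40.6% at peak 4, the 3 peaks with GATA sites there. It was 41.6% at peak 1, 45.5% at peaks 6 and 7 and 50.5% at peak 2. Of all thresholded summits, 16.8% had a lower share than peak 5 and 83.0% a lower share than peak 2. GATA sites are themselves rich in A and T, so the shares are not independent of them.

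Intron 2 of elt-3 held 16 GATA sites in 3622 bp, or 4.42 per kb. The whole elt-3 window, intron 2 included, held 3.52 per kb and the nuclear genome 2.38 per kb. No value over other introns is given here, so the density is not shown to be particular to intron 2. No other annotated protein-coding gene overlapped the window of elt-3. It held, beside elt-3, a pseudogene and the noncoding RNA genes K02B9.7 and K02B9.8.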
